A study of Homo sapiens with 3 samples.

Results

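Gene-dense stretches in the interior of chromosome arms, at 3p21 and 16p11.2, were examined in the list of capture targets behind a search for branchpoints in K562 cells. The members are the targets that lie fully inside chr3:47000001-51000000 or chr16:28000001-31500000 (hg19, counted from 1). The first block held 1664 targets and the second 1292, together 2956 of the 377858 targets listed, and no target straddled a limit. Both blocks were chosen by the target density and the scores of this same list, so those values are given as a description, with no test.

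K562 is an established human leukaemia line with erythroid and myeloid features. The study made 3 libraries from it, which are biological replicates per the labels and form 1 group with no second condition. Total RNA was depleted of ribosomal RNA and enriched on an array whose probes addressed the ends of annotated introns. The deposited list is common to the 3 libraries, so it describes which intron ends were targeted and holds no value per library.

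During splicing the first base of an intron is joined to a branchpoint, usually an adenosine a short way upstream of the 3′ splice site, and the intron leaves as a lariat. Reads that run across that joint reveal the branchpoint, which is why a design for finding it needs both the 5′ and the 3′ ends of introns. The 3p21 block lies in a region that is often deleted in lung and kidney tumours and is packed with housekeeping and signalling genes. The 16p11.2 block is known for segmental duplications between which recurrent deletions and duplications arise in people with neurodevelopmental conditions.

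Each target carries a whole-number score, of a kind that neither the labels nor the list explain, and a running number within its chromosome. The list names no genes. Genes were attached by matching the lengths of neighbouring targets and gaps to exon and intron lengths of GENCODE release 29, which do not depend on the build. Of 18777 genes in the whole list for which at least 2 introns matched, 18698 (99.58%) fell on their own chromosome, although the match did not use the chromosome. A gene was attached to 1634 targets in 3p21 (98.2%, 99 genes) and to 1261 in 16p11.2 (97.6%, 134 genes).

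What the targets hold is shown first, with letters of the gene's strand from GENCODE release 29 transcripts (GRCh38) that run through an intron or overlap it from the other strand. Such letters were available for 13 full-width targets in 3p21 and 25 in 16p11.2. Capitals mark the first or last pair of intron letters. In 3′ ends and whole introns they also mark matches to CTNAC, a short form of the human branchpoint motif in which N is any base, and overlapping matches run together. The motif was not marked in 5′ ends. The match is a description of letters and not a mapped branchpoint. In each block, the intron with the highest summed score among those with letters for both ends is shown. In 3p21 it was a 496 nt intron of KIF9, a kinesin motor, whose 5′ target at chr3:47286810-47286909 scored 5 and whose 3′ target at chr3:47286415-47286514 scored 12.
KIF9 5′ end: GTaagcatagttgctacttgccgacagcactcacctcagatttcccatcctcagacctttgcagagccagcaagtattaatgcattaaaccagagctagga
KIF9 3′ end: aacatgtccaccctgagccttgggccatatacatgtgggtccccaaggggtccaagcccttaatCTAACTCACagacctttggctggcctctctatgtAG
The first letter of each 5′ sequence lies outside its target, which covers the following 100 bases. The last letter of each 3′ sequence is the last base of its target.

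In 16p11.2 the intron with the highest summed score belonged to HSD3B7, an enzyme of bile acid synthesis, and was 218 nt long. Its 5′ target at chr16:30997527-30997626 scored 59 and its 3′ target at chr16:30997644-30997743 scored 45. The highest score of any 3′ end with letters was 64, for RNF40, a histone ubiquitin ligase, at chr16:30785036-30785135.
HSD3B7 5′ end: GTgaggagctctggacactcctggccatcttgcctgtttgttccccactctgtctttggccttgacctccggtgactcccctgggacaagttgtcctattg
HSD3B7 3′ end: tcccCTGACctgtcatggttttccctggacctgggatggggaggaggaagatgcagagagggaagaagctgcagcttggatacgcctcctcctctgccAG
RNF40 3′ end: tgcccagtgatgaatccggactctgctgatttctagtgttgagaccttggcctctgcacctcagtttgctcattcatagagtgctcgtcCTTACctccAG
The RNF40 match stands just before the terminal AG, whereas that of HSD3B7 stands near the start of its window.

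One intron of SETD1A, a histone methyltransferase gene, is shown because it begins with AT and ends with AC. Most introns run from GT to AG, and the AT to AC kind is known from the minor spliceosome, whose branchpoint motif is longer. Its 290 nt held 2 full-width targets, with a score of 22 at chr16:30991517-30991616 and of 35 at chr16:30991706-30991805. Capitals also mark a match to TTCCTTAAC, the classical branchpoint motif of minor introns, searched on the intron's strand.
SETD1A 5′ end: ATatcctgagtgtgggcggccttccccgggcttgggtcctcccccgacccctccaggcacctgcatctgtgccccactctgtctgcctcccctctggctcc
SETD1A 3′ end: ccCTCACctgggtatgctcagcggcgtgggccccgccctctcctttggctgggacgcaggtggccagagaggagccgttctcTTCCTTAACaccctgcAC
TTCCTTAAC occurred in 1 of 13 3′ targets with letters in 16p11.2 and in none of 6 in 3p21, 89 in the rest of chromosome 3 and 102 in the rest of chromosome 16. CTNAC, searched in the 100 bases of each 3′ target on the intron's strand, occurred in 3 of 6 (50%) and 6 of 13 (46.2%) in the blocks and in 30 of 89 (33.7%) and 34 of 102 (33.3%) in the rests. The block numbers are too small to set those shares apart.

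Very short introns were taken up whole. A target in NICN1, a nuclear protein gene, at chr3:49462308-49462381 was 74 nt wide, the length of the intron, and scored 28. One in HSD3B7 at chr16:30997853-30997925 was 73 nt wide and scored 99. These are the short introns of named protein-coding genes for which letters were available, with both terminal pairs and any CTNAC in capitals.
NICN1 intron: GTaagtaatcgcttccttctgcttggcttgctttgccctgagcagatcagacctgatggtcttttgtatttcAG
HSD3B7 intron: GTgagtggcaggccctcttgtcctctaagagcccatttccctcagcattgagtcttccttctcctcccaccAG
Neither holds CTNAC, and in such introns 1 target spans the 5′ splice site, the 3′ splice site and everything between.

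Targets were dense in both blocks. They covered 41.7 kb per Mb in 3p21 against 10.7 in the rest of chromosome 3, and 36.7 kb per Mb in 16p11.2 against 15.3 in the rest of chromosome 16. When each chromosome was laid out in tiles as long as its block, 3p21 was the densest of 50 tiles of chromosome 3 and 16p11.2 the 2nd of 23 tiles of chromosome 16. The genes themselves differed in build: the median intron of protein-coding genes was 312 nt in 3p21 (88 genes) against 2048 nt in the rest of chromosome 3, and 340 nt in 16p11.2 (110 genes) against 1230 nt. Introns under 202 nt, too short for a pair of separate full-width ends, made up 39.5% and 38.9% of introns in the blocks against 8.65% and 17.3%. The median share of G and C in the exons of these genes was 57.8% in 3p21 against 46.2%, and 59.1% in 16p11.2 against 55.2%.

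Scores were higher in the blocks than around them. The mean score was 12.4 (SD 20.1 over targets, median 4) in 3p21 and 5.37 (SD 13.0, median 0) in the rest of chromosome 3. It was 15.2 (SD 23.6, median 5) in 16p11.2 and 9.30 (SD 17.7, median 2) in the rest of chromosome 16. A score of 0 was held by 26.6% of targets in 3p21 against 52.1%, and by 23.1% in 16p11.2 against 39.0%. The spread between targets of a block exceeded the distance between the means, and each block was only the 2nd of its chromosome's tiles by mean score.

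**Figure D1:**
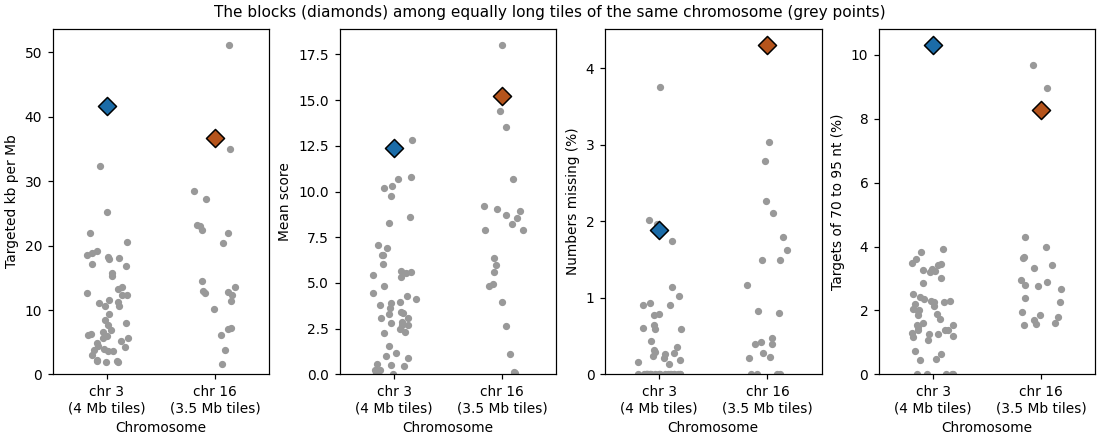
Density of targets, mean score, percent of running numbers missing and percent of targets 70 to 95 nt wide (vertical axes) for tiles as long as each block on chromosome 3 (4 Mb) and chromosome 16 (3.5 Mb), with 1 grey point per other tile of at least 50 targets and a diamond for the block. The 3p21 diamond is the highest of 50 tiles for density and for short targets, and the 16p11.2 diamond is the highest of 23 for missing numbers. The 3p21 diamond is the 4th for missing numbers, and the 16p11.2 diamond the 3rd for short targets.

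Within the blocks the score went up and down along each block. In bins of 100 kb with at least 5 targets, the mean score ranged from 0.125 to 33.2 over 36 bins of 3p21 and from 0.79 to 39.7 over 31 bins of 16p11.2. The mean of the rest of the chromosome was exceeded in 25 bins of 3p21 (69.4%) and 19 bins of 16p11.2 (61.3%). The blocks were therefore mosaics of high and low stretches.

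The highest bin of 3p21, chr3:47400001-47500000, had a mean of 33.2 over 56 targets and held PTPN23, a phosphatase-like protein of endosomal sorting, and SCAP, which escorts the sterol-sensing transcription factors out of the endoplasmic reticulum. It was followed by chr3:47000001-47100000, with a mean of 32.6 over 75 targets, mostly in NBEAL2, a gene needed for platelet granules. The next, chr3:47500001-47600000, had a mean of 30.3 over 10 targets, 9 of them in ELP6, a subunit of the Elongator complex. All 3 lie in the first 0.6 Mb of the block.

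The lowest bins of 3p21 lie towards its other end. CACNA2D2, an auxiliary calcium channel subunit, filled chr3:50400001-50500000 with 54 targets of mean 1.13 and shared chr3:50500001-50600000, with a mean of 0.125 over 8 targets, with C3orf18. DAG1, the dystroglycan gene, held 13 of 18 targets in chr3:49500001-49600000, where the mean was 1.83. The last 0.3 Mb of the block held 9 targets, all at 0, which belong to DOCK3, a guanine nucleotide exchange factor of neurons.

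In 16p11.2 the highest bin was chr16:28700001-28800000, with a mean of 39.7 over 31 targets, 18 of them in EIF3C, a subunit of translation initiation factor 3, and 12 in the duplicated gene NPIPB9. ATXN2L, a stress granule protein gene, held 24 of 57 targets in chr16:28800001-28900000, where the mean was 34.3. The duplicated genes NPIPB13, SULT1A3, SMG1P5 and SLX1A filled most of chr16:30200001-30300000, with a mean of 33.3 over 26 targets.

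The lowest bins of 16p11.2 were of a different make. ITGAX and ITGAM, which encode alpha chains of the leukocyte integrins, held all 62 targets of chr16:31300001-31400000, where the mean was 0.79. The pseudogene RRN3P2 held 15 of 18 targets of chr16:29100001-29200000, with a mean of 1.56. Unnamed noncoding genes held most of the 7 targets of chr16:29200001-29300000, with a mean of 1.57.

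Runs of score 0 followed genes. The longest run in 3p21 counted 26 targets over 27.2 kb (chr3:50229266-50256481) in SLC38A3, an amino acid transporter, and GNAT1, the rod transducin subunit of the retina. A run of 25 targets over 3.98 kb (chr3:48617491-48621467) lay inside COL7A1. A run of 16 targets (chr3:49235894-49282078) lay mostly in CCDC36, a gene of meiotic recombination. In 16p11.2 the longest runs were 15 targets (chr16:30484221-30495433) mostly in ITGAL, another integrin gene, 13 (chr16:31225620-31235501) in TRIM72 of muscle membrane repair and PYDC1, and 11 (chr16:31153701-31160392) in the protease gene PRSS36.

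Gene by gene, the same contrast held at the level of whole genes. Protein-coding genes with at least 10 targets were compared. The median of their gene means was 9.83 in 3p21 (49 genes) against 2.48 in the rest of chromosome 3 (610 genes). In 16p11.2 it was 13.5 (39 genes) against 6.57 in the rest of chromosome 16 (399 genes). Of those genes, 36 in 3p21 (73.5%) and 25 in 16p11.2 (64.1%) stood above the median of their rest. Gene means ran from 0 to 48.6 in 3p21 and from 0 to 64.0 in 16p11.2.

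Of the 5 highest gene means in 3p21, that of QARS led. QARS, the glutaminyl-tRNA synthetase, had 13 targets with scores from 9 to 124 and a mean of 48.6 (SD 44.0). APEH, which releases acylated amino acids from peptides, had 20 targets from 11 to 112 with a mean of 46.9 (SD 27.5). UQCRC1, a core subunit of respiratory complex III, had 15 targets from 1 to 106 with a mean of 41.4 (SD 32.9). NBEAL2 had 59 targets from 1 to 109 with a mean of 38.6 (SD 27.0), and SCAP 28 targets from 3 to 93 with a mean of 35.5 (SD 25). None of the 5 genes had a target at 0, yet the scores within each spanned most of the list's scale.

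In 16p11.2 the highest means belonged to EIF3CL at 64.0 (SD 37.0, 18 targets from 13 to 119) and its near-identical partner EIF3C at 59.1 (SD 40.0, 18 targets from 1 to 125). ATXN2L followed with 56.6 (SD 38.0, 24 targets from 6 to 120). RNF40 had a mean of 31.2 (SD 29.9) over 20 targets, with 1 at 0. SPNS1, a lysosomal lipid transporter, had a mean of 30.6 (SD 24.0) over 14 targets from 3 to 79.

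Protein-coding genes at the bottom of the scale had many targets at 0. GNAT1 had all 11 targets at 0. SLC38A3 had 16 of 17 at 0, SEMA3B, a secreted semaphorin, 11 of 12, CCDC36 16 of 17, and FBXW12, an F-box gene, 22 of 25. In 16p11.2, TRIM72 had all 11 targets at 0. ITGAL had 37 of 45 at 0 with a highest score of 4, and ITGAX 23 of 38 at 0, also with a highest score of 4. DOC2A, a calcium sensor of synaptic vesicles, had 8 of 15 at 0, and FAM57B, a ceramide synthesis gene, 5 of 11.

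The genes with the most targets were of both kinds. After COL7A1 with 142, the leading genes of 3p21 were NBEAL2, CACNA2D2 (58 targets, mean 1.05), CELSR3, a cadherin of axon guidance (53 targets, mean 1.64) and SMARCC1, a subunit of the SWI/SNF chromatin remodelling complex (52 targets, mean 28.6, SD 27.1). In 16p11.2 they were SRCAP, a chromatin remodeller (53 targets, mean 17.3, SD 11.0), ITGAL, ITGAM (44 targets, mean 1.02), ITGAD (40 targets, mean 0.7) and XPO6, the nuclear exporter of actin (40 targets, mean 29.2, SD 24.3). SRCAP had no target at 0 and none above 47.

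Lists of genes, chosen with earlier results of these data known, were described in full against 1 yardstick, the mean target score of the rest of the chromosome. Over all genes with a target, that mean was exceeded by 55 of 99 genes in 3p21 (55.6%) and 354 of 1399 in the rest of chromosome 3 (25.3%). For 16p11.2 it was exceeded by 70 of 134 genes (52.2%) and by 301 of 1121 in the rest of chromosome 16 (26.9%).

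Among widely expressed genes of 3p21, 34 of 45 with targets stood above that mean, with a median of 10.8. IMPDH2, which makes guanine nucleotides, had the highest mean of the list at 75.5 over 6 targets from 55 to 99. WDR6, which takes part in tRNA methylation, had a mean of 59.7 over 3 targets, and RHOA, the small GTPase of the actin skeleton, 42.8 over 8 targets from 5 to 102. The other 11 genes stood at or below that mean. GNAT1, a retinal gene set in this list, stood at 0, against the list's name. CCDC36, the gene of meiotic recombination, stood at 0.118, CAMKV at 0.333, CDHR4 at 0.778 and P4HTM at 0.8.

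Of the genes of the 3p21.3 tumour suppressor region, 11 of 15 with targets stood above the mean, with a median of 12.3. NAA80, the actin acetyltransferase, had 1 target, which scored 64, and TUSC2 3 targets with a mean of 39.3. RASSF1, a Ras effector often silenced in tumours, had a mean of 27.4 over 7 targets from 6 to 51. SETD2, the histone H3 lysine methyltransferase, had 12.3 over 40 targets, RBM6 15.0 over 42 and RBM5 12.5 over 23, the last pair being splicing regulators. SEMA3F, another secreted semaphorin, had a mean of 1.21 over 28 targets. NPRL2 and TMEM115 had no target.

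The 3p21 genes of adhesion, matrix, axon guidance and synapse had 3 of 12 above the mean and a median of 2.72. The 3 were PTPN23, with 29.9 over 29 targets and no 0, MST1, with 11.0 over 5, and TRAIP, with 8.96 over 23. PTPN23 is known for endosomal sorting and TRAIP is a ubiquitin ligase of DNA replication, so both stand apart from the list's name. Without them 1 of 10 stood above the mean, with a median of 2.15, a choice made after the values were seen. LAMB2, a laminin chain, had 5.03 over 31 targets, PLXNB1, a semaphorin receptor, 4.91 over 47, and BSN, a presynaptic scaffold, 2.15 over 20. AMIGO3 had no target.

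In 16p11.2 the proximal genes, from the stretch of recurrent deletion and duplication around ALDOA and MAPK3, divided almost evenly, with 14 of 26 above the mean and a median of 12.7. PPP4C, a protein phosphatase, had a mean of 49.0 over 7 targets from 13 to 97, ALDOA, the glycolytic aldolase, 47.8 over 6 from 10 to 116, and TAOK2, a kinase, 19.4 over 23 from 4 to 106. MAPK3, the ERK1 kinase, had 12.4 over 11 targets and KCTD13, a ubiquitin ligase adaptor, 8.86 over 7. TBX6, a T-box factor of the early embryo, had 1.12 over 8 targets with a highest score of 5. Of the distal genes, a separate stretch around ATXN2L, 9 of 12 stood above the mean with a median of 14.9. CLN3, APOBR and IL27 of that list lie on the other side of EIF3C from ATXN2L, and without them 7 of 9 stood above, with a median of 27.7. SH2B1, an adaptor of leptin and insulin signalling, had a mean of 27.7 over 12 targets.

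Of the chromatin, RNA and signalling genes 22 of 31 stood above the mean, with a median of 17.3. SETD1A, a histone methyltransferase, had a mean of 19.9 over 32 targets with no 0, RNF40, a ubiquitin ligase of histone H2B, 31.2 over 20, and SRCAP, a chromatin remodeller, 17.3 over 53 with no 0. The list also holds 6 genes that its name does not describe, HSD3B7 and VKORC1 of metabolism, the proteases PRSS8, PRSS36 and PRSS53, and MYLPF of muscle. HSD3B7 had a mean of 49.7 (SD 26.5) over 7 targets from 14 to 99, and VKORC1, the warfarin target, 31.4 over 7 targets from 0 to 107. Without those 6, 20 of 25 stood above the mean, with a median of 17.7. Of the leukocyte genes 3 of 12 did so, with a median of 0.861. TRIM72 and COX6A2 in this list are known as muscle genes, and without them it was 3 of 10 with a median of 3.09. Among those 3 were SPN (leukosialin, 2 targets scoring 6 and 120) and PYCARD (an inflammasome adaptor, mean 11.5 over 2). K562 is a line of erythroid and myeloid character, and whether the score tracks transcription was not tested.

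**Figure D2:**
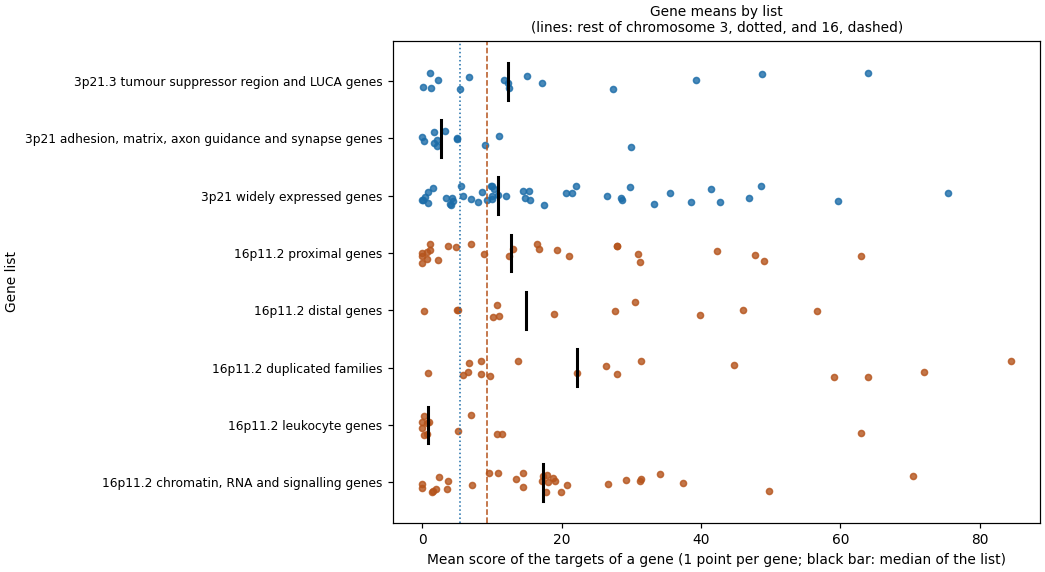
Mean target score of each gene (horizontal axis, 1 point per gene) for the 8 gene lists (vertical axis), with a black bar at the median of each list and vertical lines at the mean target score of the rest of chromosome 3 (dotted) and of chromosome 16 (dashed). The median is 0.861 in the leukocyte genes, a list that includes a pair of muscle genes, and 22.2 in the duplicated families of 16p11.2.

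The duplicated families of 16p11.2 allow the same sequence neighbourhood to be read at separate places. Their list had 11 of 17 genes above the mean and a median of 22.2. Targets of equal width at matching places, within 100 nt, were paired for 5 pairs of gene copies. Targets without such a counterpart were left out, so the differences below do not cover them. Paired were 14 of 18 targets in EIF3CL, 4 of 7 in SULT1A4, 1 of 2 in SLX1B, 10 of 11 in NPIPB6 and 7 of 10 in NPIPB7. Of 36 paired targets, 8 had equal scores and 30 differed by at most 5. The median absolute difference between copies was 1.5 (quartiles 1 and 4, highest 30), while neighbouring targets within 1 copy differed by a median of 14.5 (quartiles 6 and 47.5, 82 neighbours).

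EIF3CL and EIF3C lie on opposite strands at separate places in the block and gave 14 pairs. A 127 nt target scored 119 in EIF3CL and 125 in EIF3C, and a 95 nt target scored 115 and 116. A low pair scored 17 and 16, and another 20 and 20. The largest difference was 106 against 76. SLX1B and SLX1A, copies of a nuclease gene, gave 1 pair with 119 and 118. The other target of each, left unpaired, scored 50 in SLX1B and 26 in SLX1A. SULT1A4 and SULT1A3, copies of a sulfotransferase gene, gave 4 pairs whose differences ran from 0 to 4. In NPIPB6 and NPIPB9, 2 of 10 pairs were equal and the largest difference was 8 against 25. Which of a pair of near-identical copies a name belongs to is uncertain, since both fit the same lengths.

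**Figure D3:**
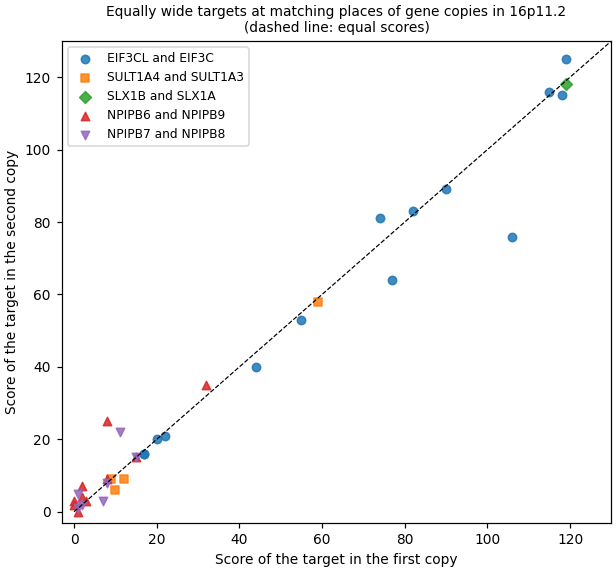
Score of a target in the first copy (horizontal axis) against the score of the equally wide target at the matching place in the second copy (vertical axis) for 36 pairs of targets in 5 pairs of gene copies of 16p11.2, with a dashed line at equal scores. The points run along the line from 0 to above 110, and the farthest is the EIF3CL and EIF3C pair at 106 and 76.

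Target widths differed between the blocks and the rests as well. Targets of exactly 100 nt, the full width, made up 72.4% in 3p21 against 91.0% in the rest of chromosome 3, and 73.5% in 16p11.2 against 85.9%. Targets of 70 to 95 nt made up 10.3% (171) against 2.21%, and 8.28% (107) against 4.26%. By this share 3p21 was the 1st of 50 tiles, but 16p11.2 was only the 3rd of 23, where another tile reached 9.67%. Targets over 101 nt made up 9.98% against 2.38%, and 10.5% against 4.27%. Of the 70 to 95 nt targets, 133 of 171 in 3p21 (77.8%) and 80 of 107 in 16p11.2 (74.8%) were whole introns, against 44.9% and 60.8% in the rests. Of the targets from 102 to 200 nt, 157 of 166 in 3p21 (94.6%) were whole introns, against 85.9% in the rest of chromosome 3. In 16p11.2 it was 120 of 136 (88.2%), much as in the rest of chromosome 16 (88.5%).

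The widest targets were 200 nt in UBA7, which activates the ubiquitin-like ISG15 (chr3:49849640-49849839), and 199 nt in LAMB2 (chr3:49166253-49166451) and ITGAX (chr16:31391388-31391586). They were followed by 197 nt in COL7A1 (chr3:48605325-48605521) and FBRS (chr16:30675839-30676035) and 196 nt in ITGAD (chr16:31422201-31422396). Their scores ran from 0 to 4.

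**Figure D4:**
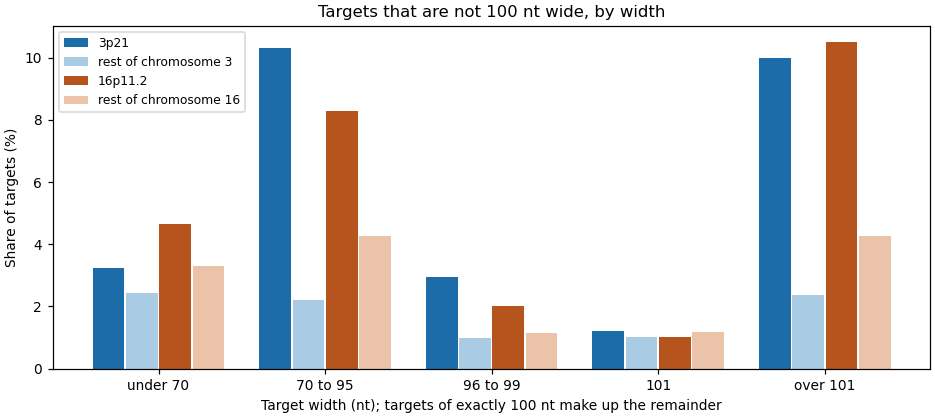
Share of targets in percent (vertical axis) by width class in nt (horizontal axis), with dark bars for the blocks and light bars for the rest of their chromosomes. The classes 70 to 95 nt and over 101 nt stand out in both blocks, at 10.3% and 9.98% in 3p21 and 8.28% and 10.5% in 16p11.2.

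COL7A1, which encodes the collagen of the anchoring fibrils of skin, alone held 142 targets within chr3:48601947-48632506, and 119 of them scored 0. None of its targets scored above 2. It held 36 of the whole short introns of 3p21, with a mean score of 0.139. USP19, a deubiquitinase, held 10 with scores from 9 to 61 and a mean of 33.7, NBEAL2 9 from 13 to 109 with a mean of 51.3, and PTPN23 8 from 22 to 111 with a mean of 45.2. Short introns were thus found at both ends of the score scale. Without COL7A1 the share of 70 to 95 nt targets in 3p21 was 8.67%.

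Of 141 gaps between neighbouring targets of COL7A1, 68 had the length of an exon plus 1 nt, from exons of 27 to 308 nt, and 45 of these exons (66.2%) were multiples of 9. The commonest, with 16 gaps, was 36 nt. Collagen chains carry glycine at regular short steps, and glycine is coded by GGN, where N is any base. Whether this repeat bears on the gap lengths was not tested. No share of multiples of 9 was taken for other genes or for the remaining gaps of COL7A1. The first 3 of the 36 nt exons along the chromosome are shown on the gene's strand, with GGN at every ninth base in capitals.
COL7A1 exon in the gap chr3:48605931-48605967: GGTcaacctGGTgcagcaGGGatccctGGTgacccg
COL7A1 exon in the gap chr3:48607312-48607348: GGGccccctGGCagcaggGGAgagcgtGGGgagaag
COL7A1 exon in the gap chr3:48607897-48607933: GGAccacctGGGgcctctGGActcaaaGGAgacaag
GGN stood at every ninth base from the first in 23 of 27 annotated internal exons of 36 nt of COL7A1 (85.2%) and in 4 of 70 of other genes of chromosomes 3 and 16 (5.71%).

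In gaps that matched an exon plus 1 nt, the additional nucleotide lies on the 5′ side of the intron on both strands. Neighbouring genes on opposite strands were set 1 nt apart in 24 of 28 cases in 3p21 and 35 of 35 in 16p11.2, against 90.9% of 9416 in the whole list. Neighbours on the same strand showed no step in 37 of 39 and 41 of 43 cases. A full-width 5′ target thus began at the second base of the intron, after the G of the GT pair, as in the sequences printed above. The base that is joined to the branchpoint lay just outside it.

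Gaps of up to 1000 nt, the range of most exons and close exon pairs, made up 70.9% of gaps in 3p21 against 55.5%, and 65.4% in 16p11.2 against 58.7%. Their median was 135 nt in 3p21 against 148, and 165 nt in 16p11.2 against 154. Among gaps of 30 to 400 nt, 58.8% and 61.3% matched a single exon plus 1 nt, against 78.8% and 69.5% in the rests. A target that covers a whole intron includes its first base, so the gap before it can equal the exon itself. Such gaps were not counted as matches, and how far they lower the shares of the blocks was not tested. The longest gaps were 103173 nt inside DOCK3 (chr3:50712833-50816005), and 72339 nt (chr3:48057823-48130161) and 70314 nt (chr3:48130262-48200575) at MAP4, a microtubule protein. In 16p11.2 they were 154640 nt before SPN (chr16:29519763-29674402), 75703 nt beside XPO6 (chr16:28222686-28298388) and 72769 nt among noncoding genes (chr16:29151222-29223990).

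Both ends of introns were targeted to a like extent. Of intron ends free of other exons, 89.2% of 5′ and 90.2% of 3′ ends were covered in 3p21, and 81.3% and 82.3% in 16p11.2. More ends overlapped an exon of another transcript in the blocks, 32.4% (5′) and 33.5% (3′) in 3p21 against 20.1% and 19.4%, and 34.6% and 36.8% in 16p11.2 against 27.0% and 28.2%. Where both ends of an intron of at least 302 nt had full-width targets, the 3′ end had the higher mean score. In 3p21 the means were 9.97 (5′) and 13.4 (3′) over 462 introns, a difference of -3.41 (SD 18.6), with the 3′ end higher in 238 introns and the 5′ end in 132. In 16p11.2 they were 11.5 and 14.4 over 367 introns, a difference of -2.92 (SD 21.0), with the 3′ end higher in 167 and the 5′ end in 129. The sign was the same in the rests, at -1.55 and -2.47, and the spread between introns was several times the difference.

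The running numbers are not complete. In 3p21, 32 numbers (1.89%) were missing in 25 breaks, against 0.541% in the rest of chromosome 3. By this share 3p21 was the 4th of 50 tiles, and the highest other tile reached 3.76%. In 16p11.2, 58 numbers (4.30%) were missing in 33 breaks, against 1.23% in the rest of chromosome 16, the highest share of its 23 tiles. Most breaks lay beside high scores. Targets beside a break had a median score of 51 in 3p21 against 4 elsewhere in the block, and 45 in 16p11.2 against 4. At least 1 neighbour scored 19 or more at 23 of 25 and 32 of 33 breaks, and both neighbours did at 15 and 20. Such scores were held by 20.9% and 25.5% of all targets of the blocks. Those shares are per target, so they are not on the same footing as a count over either neighbour. The rests showed the same pattern. There the median beside a break was 26 against 0 elsewhere on chromosome 3, and 29 against 2 on chromosome 16. Genes assigned a break despite a low mean were P4HTM (0.8), USP4 (5.85) and SEPT1 (7.09), each with 1 missing number. The breaks at P4HTM and USP4 lay between genes, in the gaps to WDR6 (mean 59.7) and RHOA (42.8).

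The largest break, of 7 numbers, covered 9280 nt at chr16:28847254-28856533 and fell at TUFM, the mitochondrial elongation factor, between targets scoring 118 and 17. A break of 5 numbers at chr16:29819250-29823672 fell in MAZ, a zinc finger factor. EIF3CL lost 11 in 7 breaks and EIF3C 8 in 6. Without both copies, the missing share of 16p11.2 was 3.01%. In 3p21, QARS lost 6 numbers in 3 breaks, NBEAL2 5 in 3, and IMPDH2, UQCRC1 and APEH 3 in 3 each.

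Of the breaks of the paired copies, 4 of 7 in EIF3CL and 4 of 6 in EIF3C had a counterpart of like length. Gaps of 356, 492 and 812 nt carried 1, 2 and 1 missing numbers in EIF3CL and the same in EIF3C. A gap of 2211 nt in EIF3CL and one of 2210 nt in EIF3C carried 2 each. The others had no counterpart of like length. They were gaps of 816, 392 and 53510 nt with 3, 1 and 1 missing numbers in EIF3CL, and of 417 and 2419 nt with 1 each in EIF3C. The gaps of 816 and 417 nt bordered the same paired target, with scores of 115 and 116. Those of 392 and 2419 nt bordered the pair scoring 74 and 81. These breaks thus lay at matching places though their gaps differed in length.

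An annotated intron end that was free of exons but had no target lay inside 21 of 25 breaks in 3p21 and 32 of 33 in 16p11.2. The same count was not made for gaps without a break. Untargeted ends numbered 94 (5′) and 74 (3′) in 3p21 and 152 and 130 in 16p11.2, against 32 and 58 missing numbers. Ends annotated in release 29 may also be absent from release 12, on which the design was based. Among genes lying fully in a block with at least 5 such exon-free ends, the share with no target was 13.3% (66 of 497 ends) for genes of 3p21 with a mean of at least 19 and 1.34% (7 of 524) for those with a mean under 2. In 16p11.2 it was 23.1% (103 of 445) and 9.32% (40 of 429). Over all genes, untargeted 5′ and 3′ ends made up 9.0% and 7.47% in 3p21, below the 14.7% and 13.1% of the rest of chromosome 3, and 17.5% and 15.8% in 16p11.2 against 16.3% and 15.3%. The share of 3p21 genes of high mean thus lay near the value of the rest, and that of its genes of low mean lay below it. QARS had 12 of 26 exon-free ends untargeted, while COL7A1, at the bottom of the score scale, had none of 176. Other genes went against this order. PTPN23 (mean 29.9) had none of 33 untargeted, and TAOK2 (19.4) none of 29. FAM57B (0.636) had 7 of 16 untargeted and DOC2A (0.6) 6 of 20. Per the labels, highly transcribed parts were left out of the design, and how far this accounts for the missing numbers was not tested.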

How the data were processed

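The deposited data are 1 list of hg19 intervals, common to 3 K562 libraries. Per the labels, the authors targeted the terminal 100 nt of introns of GENCODE release 12 and left out exon overlaps, highly transcribed parts and repeats. Column 5 is a deposited score of unstated meaning, so no count model was fitted. The submitters' processing notes name hg19, Bowtie2, TopHat2 and bedtools. Read depth was not analysed here. A fixed list has no replicate error, so no test was made and every value is a census. SD is the spread between targets or introns.

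The blocks and gene lists were chosen with earlier results of these data known. Genes were placed where at least 2 matched introns of GENCODE release 29 gave 1 offset, or, for 8573 genes, beside a placed gene where at least 2 target edges met intron edges (54 when set 7 nt off). The method was tested on simulated data. No coordinates were converted. A target shared by genes counts for 1. Named regions are the 3 highest and lowest bins with at least 5 targets, zero runs, widest targets, longest gaps and breaks of at least 5. Named genes are the 5 protein-coding genes with most targets and the 5 highest and lowest means among those with at least 10 targets. List members and other genes given as examples were picked after their values were seen. Some genes are not reported here. Python 3.11.15, numpy 2.4.6, scipy 1.17.1 and matplotlib 3.10.9 were used.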

Additional observations from a re-analysis of the deposited data

How the results depend on the processing

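Of 55 alternatives, 45 stayed within the tolerance, 9 moved beyond it and 1 reversed. The tolerance was 1.5 times for ratios, the distance from the value to a bound of the block's 95% binomial interval for shares, and 1 SD of gene means for list medians. Bins and gene assignment have no value for the rest. The share of 3p21 bins above the rest was 69.4% and became 85% with bins of 200 kb, within that wide tolerance. The reversed value was the median gap of 16p11.2: with gaps up to 300 nt it was 126 nt against 128 nt in the rest, a ratio of 0.984, where gaps up to 1000 nt gave 1.07. Block minus rest in percentage points was, for score 0, -25.5 in 3p21 and -15.8 in 16p11.2, and it became -21.6 and -11.5 against windows of at least 100 targets, and -19.0 in 16p11.2 with limits moved inward by 250 kb. For full width it was -18.6 and -12.3, and it became -13.7 and -8.04 when 90 to 110 nt counted as full. For 70 to 95 nt in 3p21 it was 8.07 and became 10.0 with 60 to 99 nt. Chosen after seeing the data, leaving out COL7A1 gave -30.8 for score 0, -15.7 for full width and 6.46 for 70 to 95 nt, and leaving out EIF3C and EIF3CL gave a ratio of missing shares in 16p11.2 of 2.45 in place of 3.49. The mean score ratio ranged from 2.05 to 2.53 in 3p21 and from 1.49 to 1.78 in 16p11.2. No paired analysis was possible because the 3 libraries form 1 group and the list has no value per library, and for the same reason no replicate could be left out. The shortened gene lists were also chosen after the values were seen. The unstated meaning of the score limits every statement on it, and genes were placed by lengths, which near-identical copies share.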
